A study of Mus musculus with 18 samples.

Results

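Leukocyte and antigen presentation genes were examined in the mouse uterus on day 5 of pregnancy, as a hand-written set of 50 genes. The genes were chosen with earlier results of these data known. The set holds MHC class I and class II presentation genes, receptors for colony-stimulating factors, chemokines and antibodies, leukocyte surface and signalling genes, and a few neutrophil and T cell genes. A differential m6A peak was given to a gene when its annotation named a transcript of the gene. It was also given when the gene assigned by the authors was a member and the centre of the peak lay between that gene's start and end. By this rule 33 of the 50 genes held a peak and 17 held none, beside 9261 of 21896 protein-coding genes with a peak. Of the 40929 peaks used from the 4 deposited tables, 23598 lay in protein-coding genes and 97 in members.

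The mice were wild-type by the labels and ICR females by the methods, and all were pregnant. Veh mice had 0.9% saline by intraperitoneal injection on days 1 to 4. LPS mice had the same saline injections on days 1 to 4. They also had lipopolysaccharide, a component of the bacterial outer membrane, on days 3 and 4, given 30 min after the saline. Mel+LPS mice had melatonin, dissolved in saline with ethanol, on days 1 to 4 and LPS on days 3 and 4, given 30 min later. Each of the 3 treatments had 3 replicates, sequenced both as input and after m6A immunoprecipitation, which makes 18 libraries. Whole uterine RNA was used, so the cell of origin of a transcript is not known from these data. The tables hold no expression values, and the tissue could not be checked against its marker genes.

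In the authors' deposited tables, peaks are higher (LPS-up) or lower (LPS-down) in LPS than in Veh, or higher (Mel-up) or lower (Mel-down) in Mel+LPS than in LPS. The LPS-down table was complete for chromosomes 1 to 9 only, which carry 25 of the 50 members, and it was used there alone. Each peak has 1 score per comparison, the log10 likelihood ratio for a difference between the treatments, and the lowest score in the tables is 1.01. A higher score means that the reads were better described by a difference than by none. It is not a fold change. No values per replicate were analysed here, so no result below has a replicate error or a test. A gene without a differential peak may still be expressed or methylated. A change in cell number, in RNA per cell, in transcript abundance or in methylation cannot be told apart from these scores. Both comparisons use the LPS libraries, so a site that is both LPS-up and Mel-down, or both LPS-down and Mel-up, shares its LPS measurement.

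m6A is a methyl mark on adenosine in RNA, placed by the METTL3 and METTL14 methyltransferase on a consensus whose most used core is GGAC, and read by proteins that act on splicing, translation and decay. Class I molecules show peptides from inside the cell to CD8 T cells, whereas class II molecules show peptides taken up by macrophages, dendritic cells and B cells to CD4 T cells. Macrophages and dendritic cells reside in the uterus in early pregnancy, and neutrophils and monocytes enter tissue when LPS is sensed.

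Sequences are given for the sites that members shared between tables, and for the Cd163 exon and Dock2 exon with the highest LPS-down and Mel-up scores. They are read from GENCODE transcripts on GRCm38, 5′ to 3′ on the strand of the gene, and only bases of the peak that lie on exons are shown. Capitals mark GGAC. For Cd163 exon 6 the first 300 of 301 exonic bases are shown, and for the Cxcr4 3′UTR a stretch of 30 bases around the motif.
Fcgr1 exon 6, LPS-up and Mel-down, chr3:96284357-96284474 (- strand): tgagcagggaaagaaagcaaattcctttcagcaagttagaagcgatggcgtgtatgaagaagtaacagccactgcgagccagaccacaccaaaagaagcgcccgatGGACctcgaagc
Fcgr3 exon 4, LPS-up and Mel-down, chr1:171053939-171053962 (- strand): agcctgtcaccatcactgtccaag
Csf2rb exon 10, LPS-up and Mel-down, chr15:78344567-78344624 (+ strand): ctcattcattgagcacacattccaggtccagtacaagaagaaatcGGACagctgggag
Cxcr4 exon 2, LPS-up and Mel-down, chr1:128589198-128589373 (- strand): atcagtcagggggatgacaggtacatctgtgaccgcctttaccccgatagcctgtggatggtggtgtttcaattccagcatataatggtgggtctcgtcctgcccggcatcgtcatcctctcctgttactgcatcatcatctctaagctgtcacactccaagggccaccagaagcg
Cxcr4 3′UTR, LPS-up and Mel-down, chr1:128588562-128588591 (- strand): ttatctgtgtgtaGGACtgtagaactgtag
Cxcr4 exon 2, LPS-down and Mel-up, chr1:128589445-128589628 (- strand): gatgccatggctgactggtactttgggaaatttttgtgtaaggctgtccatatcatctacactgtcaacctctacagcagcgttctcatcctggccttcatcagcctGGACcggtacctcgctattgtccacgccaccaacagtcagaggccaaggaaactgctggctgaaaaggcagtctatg
Cd163 exon 6, LPS-down and Mel-up, chr6:124317302-124317601 (+ strand): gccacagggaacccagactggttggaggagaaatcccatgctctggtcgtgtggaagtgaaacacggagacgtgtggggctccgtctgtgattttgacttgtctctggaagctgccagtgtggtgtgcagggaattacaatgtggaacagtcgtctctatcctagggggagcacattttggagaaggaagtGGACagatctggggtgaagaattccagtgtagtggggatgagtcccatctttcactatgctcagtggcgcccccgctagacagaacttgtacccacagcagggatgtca
Cd163 exon 9, LPS-down, chr6:124318952-124319098 (+ strand): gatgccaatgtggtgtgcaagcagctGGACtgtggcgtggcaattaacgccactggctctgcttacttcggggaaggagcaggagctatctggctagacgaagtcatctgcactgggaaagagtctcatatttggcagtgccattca
Mrc1 exon 23, LPS-down and Mel-up, chr2:14316862-14316944 (+ strand): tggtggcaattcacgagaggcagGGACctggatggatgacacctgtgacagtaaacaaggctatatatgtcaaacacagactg
Cx3cr1 exon 2, LPS-up and Mel-up, chr9:120051889-120052090 (- strand): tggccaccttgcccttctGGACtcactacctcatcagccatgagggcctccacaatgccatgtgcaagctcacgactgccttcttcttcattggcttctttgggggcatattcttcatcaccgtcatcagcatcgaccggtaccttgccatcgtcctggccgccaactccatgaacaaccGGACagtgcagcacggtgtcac
Dock2 exon 35, Mel-up, chr11:34267948-34267967 (- strand): gctgcacagtgaacttgctg
For a site shared between tables, the bases shown are those of the LPS vs Veh peak. In Cx3cr1 this LPS-up peak held 2 copies of GGAC, whereas the narrower Mel-up peak, chr9:120051897-120052071, held 1. The Cxcr4 coding site up in LPS had no GGAC, whereas the Cxcr4 coding site down in LPS held 1. The 24 bases of Fcgr3 and the 20 bases of Dock2 are the exonic ends of peaks that run on into the intron. Neither stretch held GGAC. No sequence is shown for the shared sites of Csf2ra and Cybb, which are in 3′UTRs and had no GGAC, or for shared sites in introns.

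LPS-up peaks lay in 25 of the 50 members (50%), set beside 20.1% of 21896 protein-coding genes. On chromosomes 1 to 9 they lay in 14 of 25 members (56%), beside 19.9% of 11964 genes. LPS-down peaks lay in 4 of 25 members (16%), beside 22.0% of the same genes. The share of members was thus above that of all genes for LPS-up and below it for LPS-down, and neither gap has a test. Because members were chosen with earlier results of these data known, a gap cannot be told apart from that choice. Mel-up peaks lay in 18 members (36%), beside 25.6% of genes. Mel-down peaks lay in 13 members (26%), beside 15.3% of genes. The share of members was above that of all genes in both directions of Mel+LPS vs LPS. Among genes with a peak in any table, however, Mel-up turned, with 18 of 33 members (54.5%) beside 60.6% of genes, and Mel-down was 13 of 33 (39.4%) beside 36.2%. On the same footing LPS-up was 25 of 33 (75.8%) beside 47.6%, and LPS-down 4 of 17 (23.5%) beside 49.3%.

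**Figure D1:**
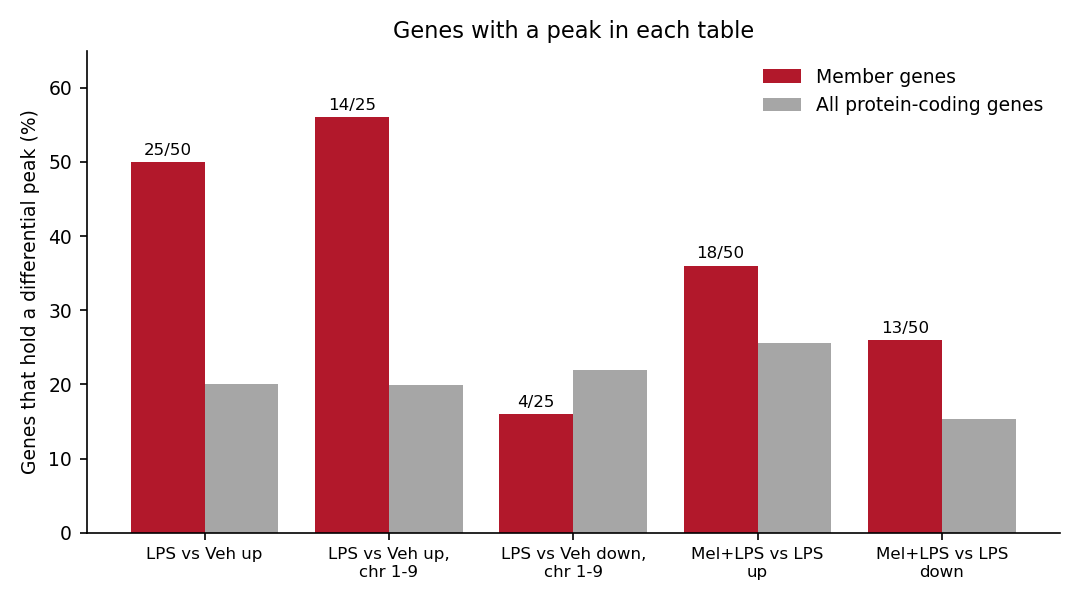
Percentage of genes that hold a differential peak (vertical axis), for members (red, with counts) and all protein-coding genes (grey), by table. Bars for chromosomes 1 to 9 cover the 25 members there, and the others all 50. The bars start at 0 and have no error bars because the tables hold no replicate values. The widest gaps are in LPS-up peaks, 56% against 19.9% on chromosomes 1 to 9 and 50% against 20.1% on all. LPS-down is the 1 table where members are below all genes. Members were chosen with earlier results of these data known.

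The gap depended on the score. With peaks of at least 3 on the log10 scale, LPS-up peaks remained in 12 members (24%), beside 10.6% of all genes. LPS-down peaks remained in 1 member (4%), Cd163, beside 10.6%. At the same level 6 members (12%) held a Mel-up peak, beside 10.7% of genes, and 5 members (10%) held a Mel-down peak, beside 8.25%. At this score the members' shares in Mel+LPS vs LPS were close to those of all genes.

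Members also leaned to 1 direction in LPS vs Veh, with the same limit from the way they were chosen. On chromosomes 1 to 9, 17 members held a peak in this comparison, of which 13 (76.5%) had LPS-up peaks alone, 3 (17.6%) had LPS-down peaks alone and 1 (5.88%), Cxcr4, had both. Among all protein-coding genes with a peak there, 36.6% were up alone, 42.5% down alone and 20.9% both. The 3 members down alone were Ccr2, Cd163 and Mrc1. In Mel+LPS vs LPS 23 members held a peak. Of these, 10 (43.5%) were up alone, 5 (21.7%) down alone and 8 (34.8%) had both, beside 55.5%, 25.6% and 18.9% of all genes. The 5 down alone were Ccr2, Csf2ra, Fcgr1, Fcgr3 and Laptm5. The 8 with both directions were Adgre1, Cd163, Csf2rb, Cxcr4, Cybb, Dock2, Lcp1 and Ptprc.

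**Figure D2:**
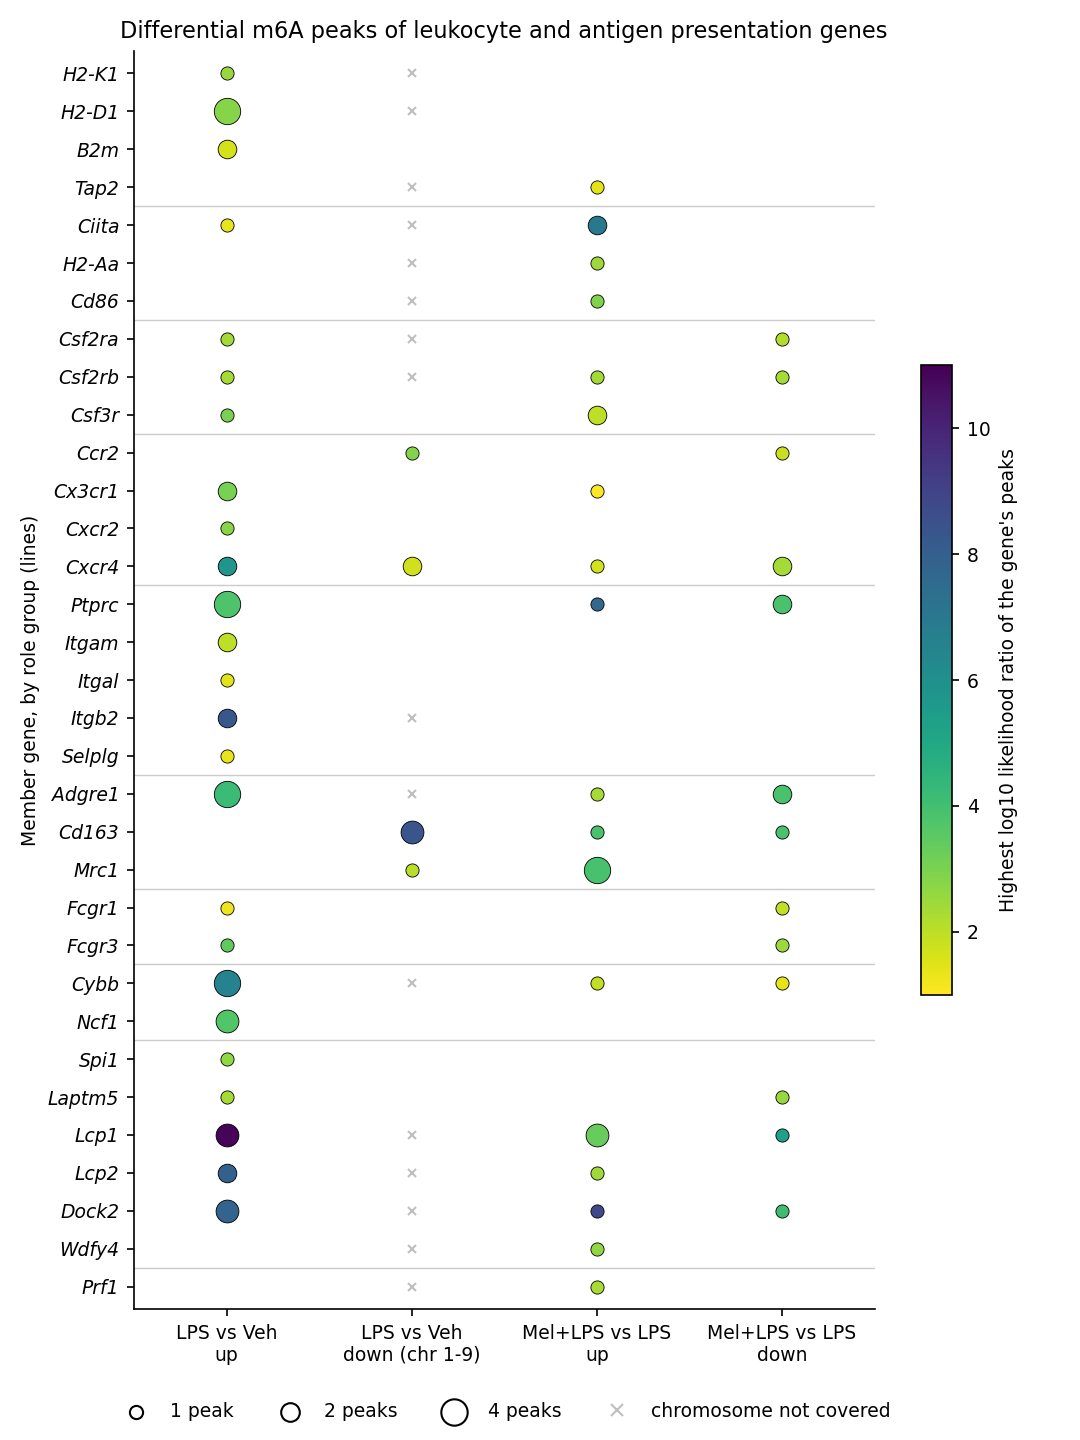
The 33 members with a peak (vertical axis, grouped by role) in each table (horizontal axis). Circle area gives the number of peaks, colour the highest log10 likelihood ratio of the gene's peaks, and grey crosses mark genes on chromosomes where the LPS-down table was not used. The LPS-up column is the fullest, with 25 genes, and the deepest colour is Lcp1, at 10.9.

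The 17 members with no peak by the rule were Tap1, Cd74, H2-Ab1, Cd80, Csf1r, Itgax, Cd68, Tyrobp, Fcer1g, S100a8, S100a9, Ikzf1, Vav1, Cd3e, Cd4, Cd8a and Gzmb. The rule left out some peaks that lie on members. The authors assigned each peak to a gene nearby, and a 3′UTR annotation names no gene, so a peak at the end of a member could carry the name of its neighbour. In all, 24 peaks were centred on a GENCODE exon of a member and outside the rule, in 17 members. Of these, 18 were 3′UTR peaks and 17 were LPS-up. They included 2 LPS-up peaks in Ikzf1 (2.86 and 2.06), a lymphoid transcription factor, 1 in Itgax (2.37), the integrin of dendritic cells, and 1 Mel-down peak in Cd68 (1.94), a macrophage lysosomal protein. These 3 members had no other peak, so 14 held none by either rule. The highest score left out in this way was 6.44, for an LPS-up peak in the 3′UTR of Itgal. By the centre on a GENCODE exon alone, 22 members (44%) were LPS-up beside 17.3% of all genes. The shares were 16% beside 18.1% for LPS-down, 28% beside 22.2% for Mel-up, and 14% beside 13.3% for Mel-down. The gap in Mel-down peaks was thus small on exons, whereas that in LPS-up peaks stayed wide. In addition, 20 peaks carried a member's name in the assigned gene and were centred outside that gene. Of these, 3 were among the 24 just described, in Spi1, Ccr2 and Prf1, and 17 were not centred on a member's exon, such as an LPS-down peak of 10.6 assigned to Cd8a that lies 19898 bases away, in Rmnd5a. These were not counted.

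Class I genes had LPS-up peaks in 3 of 5 members and none in either down table, LPS-down being covered for 1 of them, B2m. H2-D1, a class I heavy chain, had 4 LPS-up peaks, in exon 2 (2.83), exon 3 (2.20), exon 5 (2.74) and the 3′UTR (2.74). H2-K1, another heavy chain, had 1 in its 3′UTR (2.54). B2m, the shared light chain, had 1 in exon 1 (1.38) and 1 in the 3′UTR (1.63). All 7 scores were below 3. A Mel-down peak assigned to B2m (1.502), centred 16 bases past the end of the gene and outside the rule, overlapped the LPS-up peak of the 3′UTR. Class I genes are near-identical copies, so reads at H2-D1 and H2-K1 may have been split between them and the placement of these peaks is uncertain. Tap2, a subunit of the peptide transporter, had a Mel-up peak in exon 2 (1.44), where Gm20496 lies on the opposite strand.

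Class II and costimulation genes had Mel-up peaks in 3 of 6 members and an LPS-up peak in 1. Ciita, the regulator that switches on class II genes, had 2 Mel-up peaks in exon 10 of 15, of 6.94 and 3.69. The first was the highest score of the class I and class II members. The 2 peaks held 1 and 2 copies of GGAC. Its LPS-up peak, in exon 4 (1.37), lies where Dexi is transcribed from the other strand. H2-Aa, the class II alpha chain, had a Mel-up peak in exon 2 (2.46), and Cd86, a ligand of CD28 on T cells, had 1 in the 3′UTR (2.88). None of the 6 genes is on chromosomes 1 to 9, so LPS-down peaks were not examined.

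Colony-stimulating factor receptors had LPS-up peaks in 3 of 4 members. Csf2ra and Csf2rb form the receptor of GM-CSF, a myeloid growth factor. In Csf2ra a 3′UTR site was LPS-up (2.38) and Mel-down (2.16). In Csf2rb the end of exon 10 was LPS-up (2.34) and Mel-down (2.34), and the 5′UTR had a Mel-up peak (2.37). Mouse Csf2rb has a close paralogue, Csf2rb2, so reads may be shared between them. Csf3r, the G-CSF receptor of neutrophils, had an LPS-up peak annotated to the 5′UTR (3.02), centred in the coding sequence of the transcript used for positions, and Mel-up peaks in the 5′UTR (1.41) and the last exon, 16 (1.995). The scores of this group kept within a narrow range, from 1.41 to 3.02, apart from an LPS-up peak on the 3′ part of Csf2rb that the rule left out (5.08).

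All 4 chemokine receptors held peaks, and all are on chromosomes 1 to 9. Cxcr4, the receptor of CXCL12, was the 1 member of the 25 on these chromosomes with peaks in all 4 tables. Its exon 2 had an LPS-up peak of 5.80 and, farther 5′ in the same exon, an LPS-down peak of 1.42. Its 3′UTR class held an LPS-up peak (2.09) and an LPS-down peak (1.71), the latter centred 5.5 bases before the last coding base. Cx3cr1, the fractalkine receptor of monocytes and macrophages, had 2 LPS-up peaks in exon 2 (3.04 and 2.62). Outside the rule, 2 LPS-up peaks (3.88 and 3.30) and a Mel-up peak (1.10) of 3′UTR class lay on its exons. Cxcr2, which draws neutrophils to chemokines, had an LPS-up peak in the 3′UTR (2.78). Ccr2, which recruits monocytes, differed in direction, with an LPS-down peak (2.87) and a Mel-down peak (1.82) at separate places in the 3′UTR and no LPS-up peak.

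Adhesion and pan-leukocyte genes had LPS-up peaks in 5 of 6 members, no LPS-down peak among the 5 members on chromosomes 1 to 9, and Mel peaks in 1 member. Itgb2, the beta chain of the leukocyte integrins, had LPS-up peaks in exon 10 (8.29) and exon 3 (2.39). Its partner chains Itgam and Itgal had lower scores, in exons 7 (1.68) and 16 (2.004) of Itgam and, by the authors' annotation, in intron 30 of Itgal (1.46). The Itgal peak lies wholly on an exon of a GENCODE transcript of the gene. The Itgam sites are also exons of the overlapping Gm49368. An LPS-up peak of 3′UTR class lay outside the rule in each gene, at 3.05 in Itgam and 6.44 in Itgal. Selplg, the ligand of P-selectin, had an LPS-up peak in exon 2 (1.39). Ptprc, the CD45 phosphatase of all leukocytes, had 4 LPS-up peaks, of which that of exon 25 scored 3.56 and 3 were intronic (3.78, 2.79 and 1.57). Its Mel-up peak was annotated to exon 9 (7.62), with 28 of its 161 bases on exons of the 1 transcript used for positions, and its 2 Mel-down peaks in introns 1 (3.85) and 31 (1.45).

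Macrophage surface genes had LPS-up peaks in 1 of 4 members, and LPS-down peaks in the 2 members on chromosomes 1 to 9. Adgre1, a marker of mature macrophages, had 4 LPS-up peaks, in exon 9 (4.17), exon 6 (2.73) and 2 introns (3.78 each). The peaks annotated to exons 9 and 6 had only 10 and 7 bases on a GENCODE exon. Cd163, the scavenger receptor for haemoglobin, had 3 LPS-down peaks and no LPS-up peak. These lay in exon 9 (8.40), exon 6 (8.32), and an exon of Gm52877, a gene within Cd163 (4.45). The last had 0 bases on a GENCODE exon of Cd163. Mrc1, the mannose receptor, had an LPS-down peak in exon 23 (2.09) and 4 Mel-up peaks, in exons 23 (3.89), 9 (3.86), 8 (3.71) and 11 (1.78). Outside the rule, an LPS-down peak (1.90) and a Mel-up peak (1.27) of 3′UTR class overlapped on an Mrc1 exon. LPS-down peaks could not be examined for Adgre1 and Cd68, so the 4 genes cannot be compared in that direction. In Mel+LPS vs LPS, Cd163 had a Mel-up peak in exon 6 (3.86) and a Mel-down peak in intron 7 (3.85). Adgre1 had a Mel-up peak in exon 10 (2.33), with 5 bases on the exon, and 2 Mel-down peaks in introns (3.85 each).

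Of the 4 Fc receptors and adaptors, the 2 receptors, which bind the constant part of antibodies, had peaks, each LPS-up and Mel-down at 1 site. The adaptors Tyrobp and Fcer1g had none. Fcgr1, the high-affinity IgG receptor, scored 1.26 and 1.96 in its last exon, 6, and Fcgr3 scored 3.42 and 2.498 in exon 4. Of the neutrophil and oxidase genes, 2 of 4 had peaks, and both code for NADPH oxidase subunits. Cybb, the catalytic subunit, had LPS-up peaks in exon 4 (6.58), exon 5 (4.64) and the 3′UTR (2.94 and 2.77), a Mel-up peak in the 3′UTR (1.93) and a Mel-down peak in the 3′UTR (1.38). Ncf1, the organiser subunit, had LPS-up peaks in exons 5 (3.72), 2 (2.71) and 4 (1.35), each with at most 30 bases on the exon. S100a8 and S100a9, abundant neutrophil proteins, had none.

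Transcription factor, signalling and cytoskeletal genes had the highest scores, with LPS-up peaks in 5 of 8 members. Lcp1, the actin-bundling L-plastin of leukocytes, had LPS-up peaks in intron 14 (10.9), intron 1 (7.25) and exon 3 (3.07). The first, at chr14:75224229-75224343, was the highest score of any member and stood at percentile 97.7 of LPS-up peaks in genes. Its Mel-up peaks lay in intron 5 (3.31), exon 12 (2.39) and exon 10 (1.97), and its Mel-down peak in the 5′UTR (5.34), where Gm15628 lies on the other strand. Lcp2, the SLP-76 adaptor, had LPS-up peaks in intron 18 (7.98) and exon 12 (3.04) and a Mel-up peak in exon 2 (2.43). Dock2, an activator of Rac in lymphocyte migration, had LPS-up peaks in exon 25 (7.83), intron 22 (4.04) and intron 5 (1.93). Its exon 35 held the highest Mel-up score of a member, 8.82.

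Spi1, the PU.1 transcription factor of myeloid cells, had an LPS-up peak in exon 5 (2.67). Outside the rule, an LPS-up peak of 5′UTR class (3.13) and a Mel-up peak (1.95) lay on Spi1 exons. Laptm5, a lysosomal membrane protein, had 1 site in intron 8, LPS-up (2.35) and Mel-down (2.56). Wdfy4, needed by dendritic cells for cross-presentation, had a Mel-up peak in exon 12 of 59 (2.67) with 5 copies of GGAC. Of the 5 T cell and cytotoxic genes Prf1, perforin, was the 1 with a peak, Mel-up in exon 3 (2.31). A Mel-down peak on its 3′ exon (1.51) lay outside the rule. Its position on chromosome 10 leaves LPS-down unexamined.

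The same site appeared in more than 1 table for some members, with at least 1 shared base. LPS-up and Mel-down peaks overlapped in 10 members. In exons or UTRs these were Fcgr1, Fcgr3, Csf2ra, Csf2rb, Cybb (2.94 and 1.38) and both sites of Cxcr4 (5.80 and 2.36 in exon 2, 2.09 and 1.15 in the 3′UTR). In introns they were Ptprc (3.78 and 3.85), Adgre1 (3.78 and 3.85), Dock2 (4.04 and 4.11) and Laptm5 (2.35 and 2.56). The Ptprc site lies on an exon of A130071D04Rik on the same strand. LPS-down and Mel-up peaks overlapped in 3 members, Cd163 exon 6 (8.32 and 3.86), Mrc1 exon 23 (2.09 and 3.89) and Cxcr4 exon 2 (1.42 and 1.68). In Cx3cr1 exon 2 an LPS-up peak (3.04) overlapped a Mel-up peak (1.07). These pairs share the LPS libraries, and their number is not a result about melatonin. The share of all protein-coding genes with such overlaps was not counted, so these numbers of members have no background beside them.

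The scores of members were near those of all peaks in protein-coding genes. The median was 2.77 beside 2.56 for LPS-up (49 member peaks), 2.87 beside 2.45 for LPS-down (7), 2.43 beside 2.16 for Mel-up (25) and 2.43 beside 2.88 for Mel-down (16). Some scores were repeated. The value 3.78 of the Ptprc and Adgre1 introns was the score of 1450 of 12023 LPS-up peaks (12.1%), and 3.85 that of 1370 of 9211 Mel-down peaks (14.9%), among them 4 member peaks, in Adgre1, Cd163 and Ptprc. Of the peaks with these scores, 68.5% and 70.4% were in introns or between genes, beside 32.2% and 39.5% of all peaks in the tables.

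**Figure D3:**
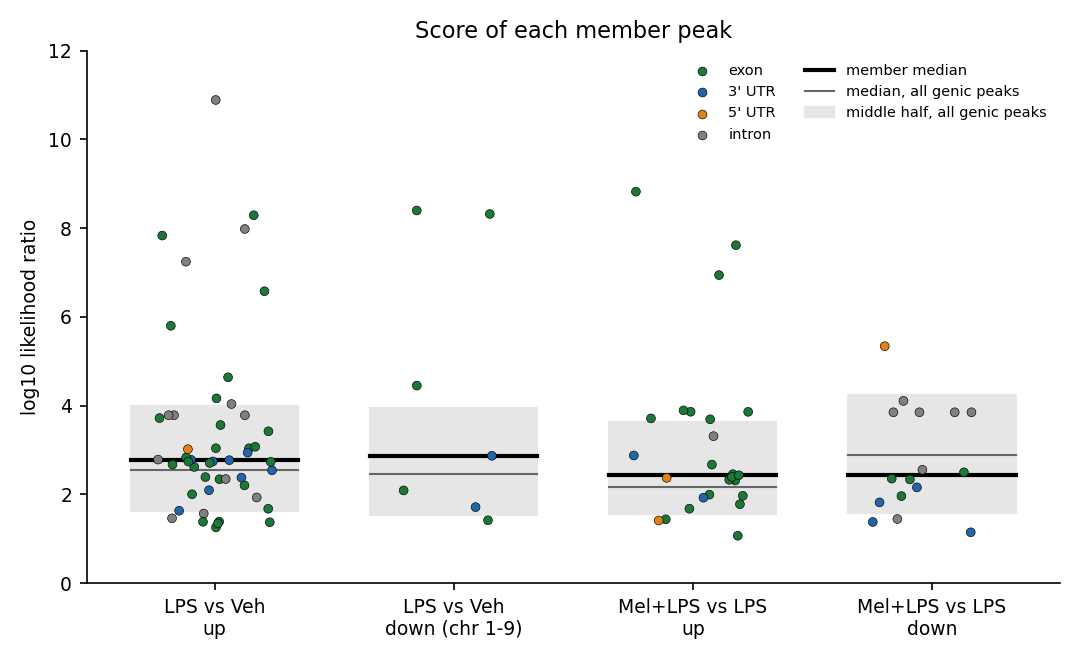
Log10 likelihood ratio (vertical axis) of each member peak by table, coloured by feature class. Black lines are member medians, thin grey lines and grey boxes the median and the interquartile range of all peaks in protein-coding genes. Each point is 1 peak, horizontal scatter has no meaning, and the highest points are 10.9 (LPS-up), 8.40 (LPS-down), 8.82 (Mel-up) and 5.34 (Mel-down).

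Of the 97 member peaks 57 (58.8%) were in exons, 16 (16.5%) in 3′UTRs, 20 (20.6%) in introns and 4 (4.12%) in 5′UTRs. Among all peaks in protein-coding genes these shares were 55.6%, 13.7%, 24.1% and 6.03%. The rule leaves out many 3′UTR peaks. With the 24 peaks centred on member exons added, 34 of 121 (28.1%) were in 3′UTRs and 57 (47.1%) in exons, beside 26.0% and 44.6% when peaks of all genes were counted likewise. The tables differed among themselves. Exons held 20 of 25 Mel-up member peaks (80%, Wilson 95% interval 60.9 to 91.1) and 4 of 16 Mel-down ones (25%, 10.2 to 49.5). Introns held 1 Mel-up and 7 Mel-down member peaks. The shares of all genes differed in the same direction, with 66.6% of Mel-up and 38.9% of Mel-down peaks in exons. Intervals cover counting error only, and several peaks share a gene.

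Many exon peaks of members lay over an exon end. Of the 57, 34 (60.7% of those with bases on a GENCODE exon) ran past the 3′ end of their exon, taken from any transcript of the gene, beside 50.9% of all exon peaks in genes, and 22 (38.6%) had under 50 bases on it, beside 30.1%. Examples are exon 25 of Dock2, with 8 bases of the LPS-up peak, exon 25 of Ptprc, with 11, and exon 5 of Cybb, with 9. Of 76 member peaks that could be placed on a spliced transcript, 58 were centred in the coding sequence, 15 in the 3′UTR and 3 in the 5′UTR. m6A is known for its high density near stop codons. Within 400 bases of the last coding base lay 16 member peaks (21.1%), beside 27.7% of all. With the peaks that the rule leaves out these were 29 of 99 (29.3%), beside 32.4%. For Mel-up they were 2 of 24 (8.33%), beside 23.4%.

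**Figure D4:**
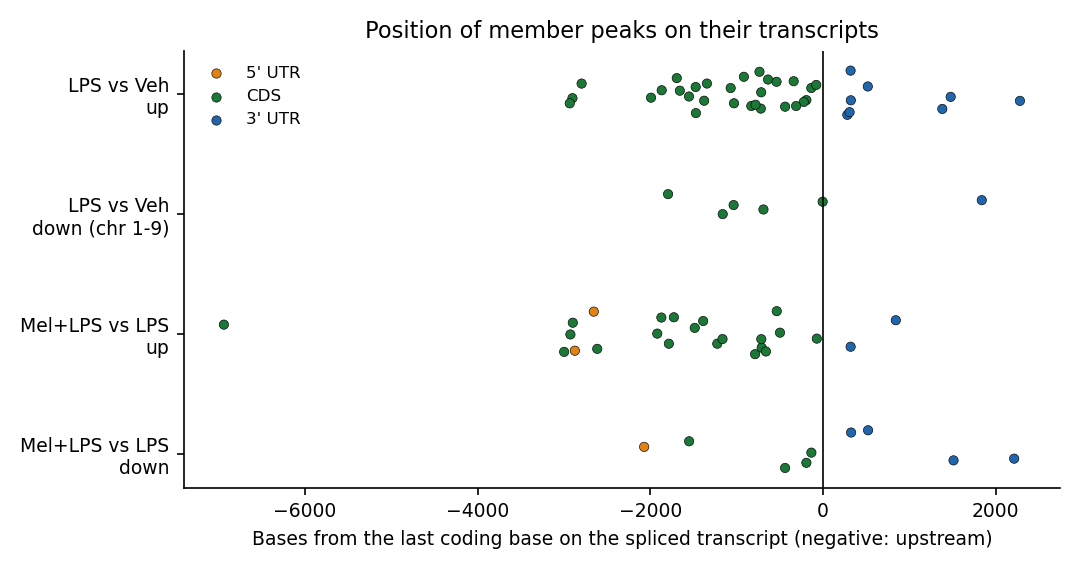
Distance of the centre of each member peak from the last coding base of its spliced transcript (horizontal axis, bases, negative upstream), by table (rows) and region (colour). Each point is 1 of 76 peaks and vertical scatter within a row has no meaning. Most points lie upstream of 0, in the coding sequence, and the Mel-up row has 2 of 24 points within 400 bases of it.

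GGAC was searched on the gene strand in peaks with at least 50 exonic bases. It was present in 35 of 53 member peaks (66%, 52.6 to 77.3), beside 54.6% of 12030 peaks of all genes. For Mel-up it was present in 16 of 19 (84.2%, 62.4 to 94.5), beside 57.1%, and for LPS-up in 11 of 20 (55%), beside 54.7%. LPS-down held it in 5 of 6 and Mel-down in 3 of 8. A match is a string of letters in a window, and not a measured methylation site.

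A list of 95 other leukocyte and antigen presentation genes was read in the same way. LPS-up peaks lay in 33 of them (34.7%), LPS-down peaks in 10 of 54 (18.5%), Mel-up peaks in 26 (27.4%) and Mel-down peaks in 12 (12.6%). The shares of all protein-coding genes were 20.1%, 22.0%, 25.6% and 15.3%, so these genes were near the background for Mel-up and below it for Mel-down. On chromosomes 1 to 9, where LPS-down was read, LPS-up peaks lay in 14 of 54 (25.9%), beside 19.9% of genes. The leukocyte signalling genes among them had the highest LPS-up share, 11 of 20, and the neutrophil genes 2 of 14. Of the 7 neutrophil genes on chromosomes 1 to 9, 0 were LPS-up and 3 LPS-down. Of the 10 highest scores, 6 were LPS-up, in Marco (20.4), Fpr1 (20.05), Cd40 (13.4), Syk (12.5), Ctss (9.996) and Dock8 (9.65). Marco is a macrophage scavenger receptor, Fpr1 a receptor for bacterial formyl peptides, and Cd40 the receptor of the T cell ligand CD154. Ltf, lactoferrin, a product of neutrophils and of uterine epithelium, was LPS-down (12.2). H2-Q7 (11.7), Runx1 (11.3) and Cd247 (9.89) were Mel-up.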

How the data were processed

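Uterine RNA was fragmented and immunoprecipitated with an m6A antibody. Reads were trimmed by the authors (Fastp) and mapped to mm10, the GRCm38 build (STAR 2.5.2a). Peak calling used exomePeak2, differences came from MACS2 3.4, and ChIPseeker 1.22.1 gave the annotation (versions as in the submitters' processing notes). How replicates were combined and whether libraries were stranded is not given in the sources used here. The authors deposited 4 tables with 1 score per peak, a log10 likelihood ratio, and no counts, so depth is unknown and the number of replicates could not be used. Without strand, overlapping genes cannot be told apart.

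Peaks were given to genes as the report states, and counts set beside RefSeq protein-coding genes (GRCm38.p6). Exons and sequences came from GENCODE release 21 (GRCm38), with exons of all transcripts for overlaps and 1 transcript per gene for positions, motifs and sequences. No test was run. Shares have Wilson 95% intervals. The members and lists were chosen with earlier results of these data known. Every member is named. Of the 95 other genes the 10 with the highest scores are named. The alternatives were a score of at least 3, other rules for giving peaks to genes, other overlaps, windows and backgrounds, 1 peak per gene, and, chosen after seeing the data, the centre of the peak on a GENCODE exon, alone or added to the rule. The steps were tested on simulated data. Python 3.11.15, pandas 2.3.3, numpy 2.4.6 and scipy 1.17.1 were used.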

Additional observations from a re-analysis of the deposited data

How the results depend on the processing

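Of 63 alternative values, 40 stayed close to the reported ones and 23 moved. With a log10 likelihood ratio of at least 3, members with a peak numbered 12 (LPS-up), 1 (LPS-down), 6 (Mel-up) and 5 (Mel-down). Members with both directions numbered 0 in LPS vs Veh and 4 in Mel+LPS vs LPS. Members with overlapping peaks numbered 3 (LPS-up and Mel-down), 1 (LPS-down and Mel-up) and 0 (LPS-up and Mel-up), and the share of 3′UTR peaks was 0% and that of introns 34.2%. By the assigned gene alone, 7 members were LPS-down. With exon and UTR classes alone, 8 were Mel-down and 4 had both directions in Mel+LPS vs LPS. With the centre on a GENCODE exon, an alternative chosen after seeing the data, 7 were Mel-down, and with such peaks added to those of the rule the share of exon peaks was 47.1% and that of 3′UTR peaks 28.1%. With peaks at most 100 bases apart, 2 members overlapped in LPS-up and Mel-up and 1 in LPS-down and Mel-down. Among genes with a peak in any table, the background was 47.6% (LPS-up), 49.3% (LPS-down), 60.6% (Mel-up) and 36.2% (Mel-down), beside 75.8%, 23.5%, 54.5% and 39.4% of the members with a peak in any table, so the direction turned for Mel-up. No paired analysis was possible because the tables hold 1 score per peak and no value per replicate. For the same reason no replicate could be left out, and the depth behind a peak is unknown.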
